A study of Schizosaccharomyces pombe with 12 samples.

Results

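Latrunculin A (LatA) was given to fission yeast (Schizosaccharomyces pombe) whose RNA polymerase II carries a shortened but otherwise wild-type carboxy terminal domain (CTD), and the messenger RNAs of these rpb1-12XCTD cells are described here against those of the same strain in the solvent, DMSO. The comparison takes 6 of the 12 arrays of the series, chosen by their titles, and all 4875 S. pombe probe sets on them. The LatA group is rpb1-12XCTD grown in YES medium at mid-log phase and kept for 3 h in 0.5 µM LatA (3 biological replicates), and the DMSO group is the same strain kept for 3 h in DMSO (3 biological replicates). Per the strain list of the study, these cells are h- (M mating type), carry the ura4-marked rpb1 allele with 12 wild-type heptad repeats, and have the mutations ura4-D18 and leu1-32. The other 6 arrays are of rpb1-12XS2ACTD cells, 3 with LatA and 3 with DMSO. That strain has the same markers, and in its 12 repeats serine 2, which the kinase Lsk1p phosphorylates, is replaced by alanine. Both strains hold the shortened CTD, and cells with the full-length CTD were not among these arrays. The series asked whether loss of serine 2 phosphorylation alters the cells' transcripts, with LatA as the condition in which the strains behave differently, and rpb1-12XCTD was its control strain.

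LatA binds actin monomers and keeps them from joining filaments. In fission yeast, actin filaments build the endocytic patches and cables of growing tips and the contractile ring that divides the cell, and at low doses of the drug cells with a damaged ring hold back the cell cycle until division is complete. Fission yeast also answers many stresses with a common set of transcripts, the core environmental stress response (CESR), which runs through the MAP kinase Sty1p and the transcription factor Atf1p. When nitrogen runs out, a separate program led by the transcription factor Ste11p turns on mating genes, and cells respond to the pheromone of the other mating type through a G protein and a MAP kinase cascade.

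Levels are the deposited log2 values, and each probe set has been centred to a median of 0 across the 12 arrays, so they show how an array stands against the other arrays and not how one gene stands against another. The 6 arrays differed in how well replicates matched. The median SD between replicates was 0.07 log2 units with LatA and 0.20 with DMSO, and 89.7% of the probe sets varied more among the DMSO arrays. The median over all probe sets was 0.02, 0.04 and 0.02 on the LatA arrays of replicates 1, 2 and 3, and −0.16, −0.11 and 0.07 on the DMSO arrays. These offsets and this spread bear on every count below.

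A probe set was called when its change exceeded 1.5 fold and limma, fitted to the 6 arrays, gave an adjusted p under 0.05 (Benjamini-Hochberg, with all 4875 probe sets in the adjustment). With LatA, 590 probe sets were called, 12.1% of those tested. Of these, 482 rose (9.89%) and 108 fell (2.22%), and 133 of the risers and 34 of the fallers changed over 2 fold. All 3 LatA arrays lay above all 3 DMSO arrays for 1577 probe sets (32.3%) and below them for 519 (10.6%), which includes all 482 risers and 105 of the 108 fallers. The median change over all probe sets was 0.10 as deposited, and it was 0.00 after each array was centred on its median and −0.02 after quantile normalization. The split between rises and falls moved with that choice: rises made up 81.7% of the calls as deposited, 66.2% after median centring (347 rose, 177 fell) and 52.6% after quantile normalization (284 rose, 256 fell). Called in the same direction under all 3 scalings were 276 risers and 106 fallers. Leaving out LatA replicate 2 lowered the calls to 234 risers and 50 fallers. Without DMSO replicate 1 the fallers numbered 204, without DMSO replicate 3 they numbered 69, and without LatA replicate 3 they numbered 68. The risers numbered 330 without DMSO replicate 2, 335 without LatA replicate 3 and 644 without DMSO replicate 3. The gene-specific test named in the study's methods, with the same thresholds, called 15 (9 rose, 6 fell). List counts given below for other settings are to be read beside these counts over all probe sets, which moved too.

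**Figure D1:**
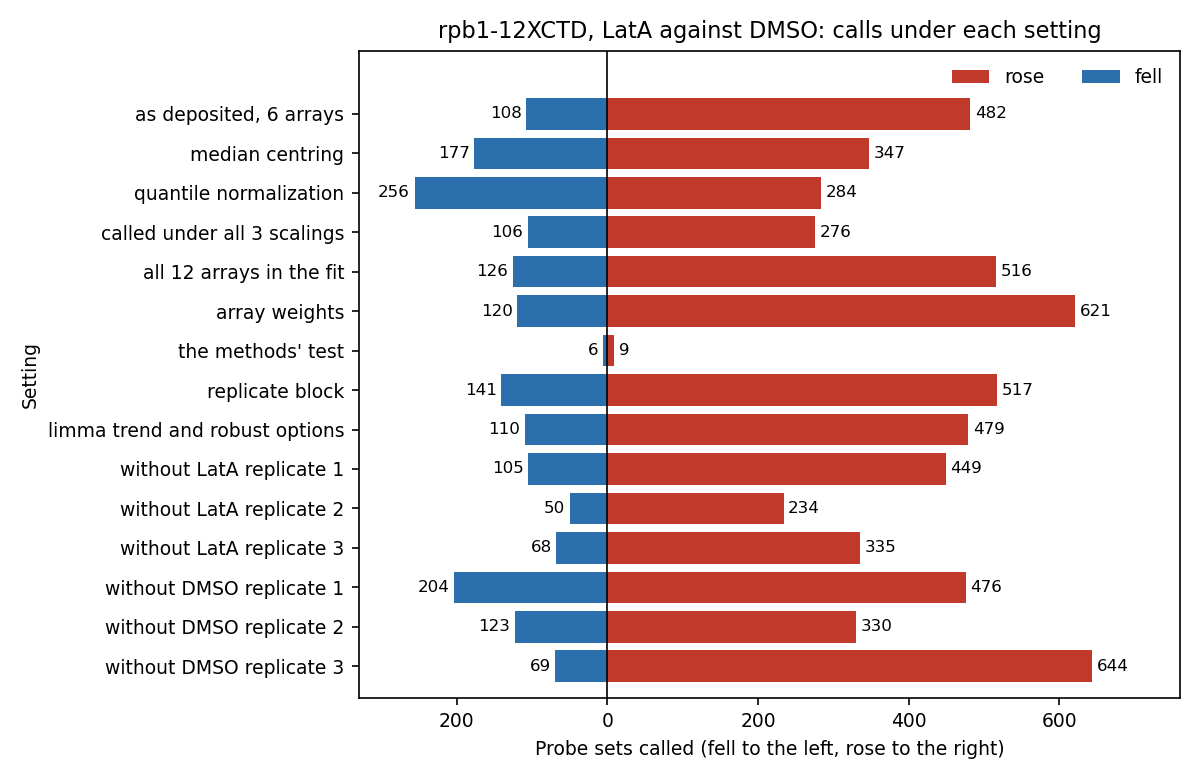
Number of probe sets called in LatA against DMSO in rpb1-12XCTD cells under each setting, with rises to the right (red) and falls to the left (blue). Risers outnumbered fallers in every setting drawn, by 482 to 108 as deposited and by 284 to 256 after quantile normalization.

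The largest rise of a named gene was that of cmt2, annotated as a putative methyltransferase that uses S-adenosylmethionine. Its levels were 1.94, 0.95 and 0.79 on the LatA arrays and −2.95, −2.98 and −2.82 on the DMSO arrays. The groups were far apart, and cmt2 rose by 4.14 ± 0.27 log2 units (SE), or 17.7 fold (adjusted p = 0.00102). Its relative cmt1 stood at 1.19, 1.27 and 1.25 with LatA and at −0.74, −1.86 and −0.91 with DMSO. All LatA arrays of cmt1 were alike while the DMSO array of replicate 2 lay lowest, and the rise was 2.41 ± 0.26 (adjusted p = 0.00284). The metallothionein gene zym1, whose product binds metal ions, had levels of 0.82, 1.71 and 1.82 with LatA and −0.93, −1.58 and −1.55 with DMSO. LatA replicate 1 was the lowest of the 3 LatA arrays for zym1 and still stood above every DMSO array, and the rise was 2.80 ± 0.29 (adjusted p = 0.00243).

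The 20 largest rises also took in rec10, mde6, mug147 and mug133. The gene rec10, which encodes a component of the linear elements of meiotic chromosomes, had levels of 0.43, −0.16 and −0.28 with LatA and −2.02, −2.20 and −2.25 with DMSO. Its groups did not overlap, and it rose by 2.15 ± 0.19 (adjusted p = 0.0014). The gene mde6, named for its dependence on the meiotic regulator Mei4p, stood at 1.89, 1.66 and 1.46 with LatA and at −0.35, −2.18 and −0.68 with DMSO. Replicate 2 was by far the lowest DMSO array for mde6, and the rise was 2.74 ± 0.42 (adjusted p = 0.00673). Among genes named mug for their meiotic induction, mug147 rose by 2.44 ± 0.33 and mug133 by 2.15 ± 0.24. Over all 98 probe sets named meu or mug, 13 rose (13.3%, against 9.89% of all probe sets) and 2 fell (2.04%, against 2.22%), shares near those of all probe sets, with a median change of 0.16. The number that rose was 7 without LatA replicate 2, and the number that fell was 4 without DMSO replicate 1 or DMSO replicate 2. After quantile normalization 8 rose and 5 fell, with a median of −0.03.

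The rest of the 20 largest rises joined enzymes and genes of unknown function. SPBC215.11c (an aldo-keto reductase) rose by 1.98 ± 0.33, SPAC4H3.08 (a predicted short chain dehydrogenase) by 1.76 ± 0.29, gal10 (UDP-glucose epimerase) by 1.75 ± 0.18, dpe1 (a predicted dipeptidase) by 1.66 ± 0.18 and hri1 (a kinase of the translation factor eIF2α) by 1.69 ± 0.35. SPBCPT2R1.02, SPCC737.04, SPAC27D7.09c, SPAC15E1.02c and SPAC23C11.06c, with no function given in the annotation used, rose by 1.95 to 2.69. SPAC27D7.09c has 2 probe sets, which rose by 2.10 and 2.03. The second of these and the probe set of SPBCPT2R1.02 have a suffix that marks several genes, so they may share RNA with other genes. The gene tsp0, similar to the peripheral benzodiazepine receptor, rose by 1.82 ± 0.31. Each of these 20 genes kept its call under median centring, under quantile normalization and with any 1 of the 6 arrays left out. A further 4 of the 20 largest rises among all called probe sets belong to probe sets with no single gene name.

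**Figure D2:**
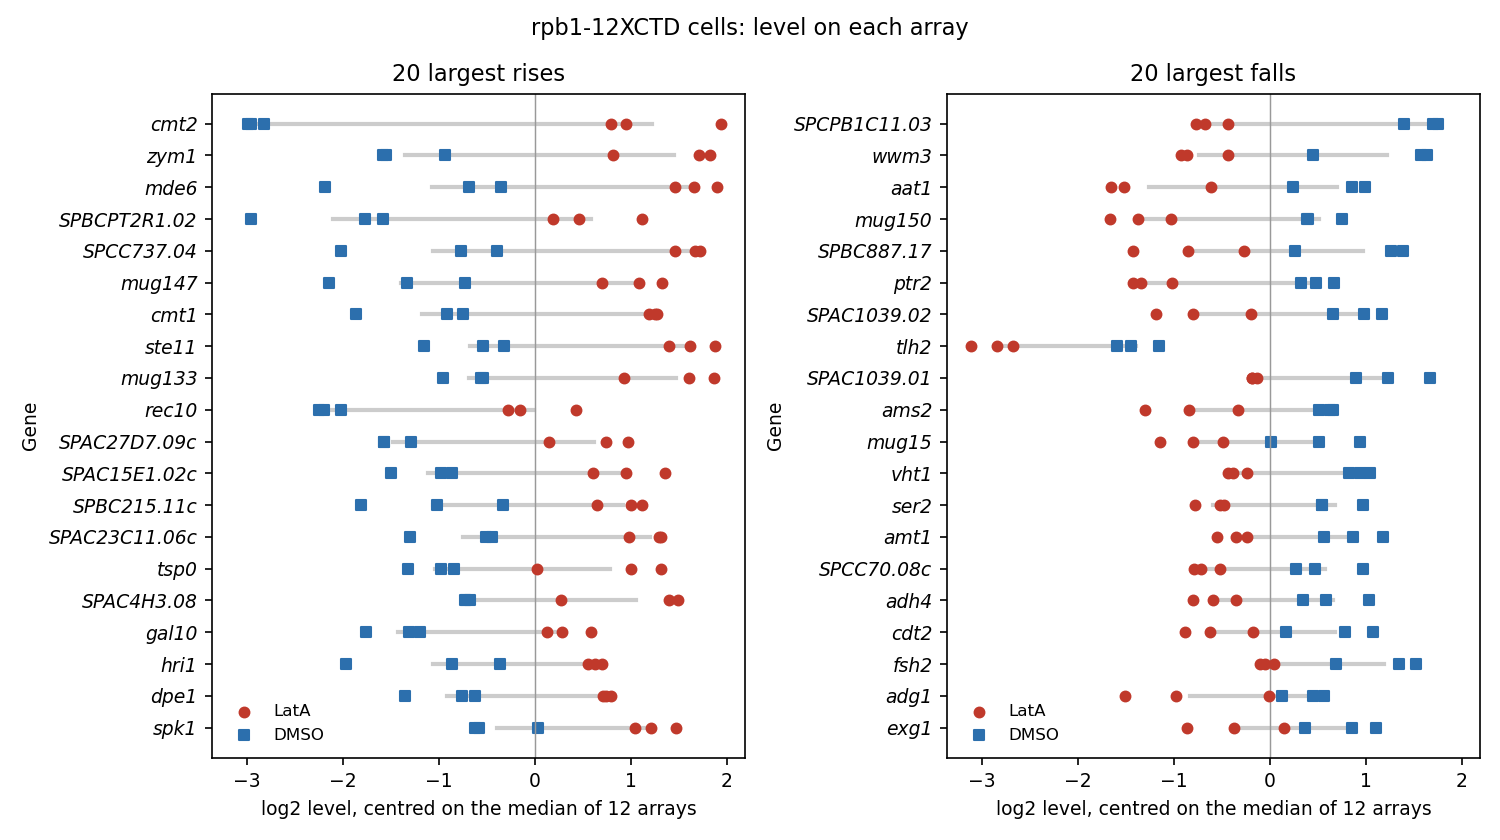
Log2 level (horizontal axis, centred on the median of 12 arrays) of the 20 named genes with the largest rise (left) and the largest fall (right) in rpb1-12XCTD cells, with 1 point per array (red circles LatA, blue squares DMSO, 3 each) and a grey line between the group means. The groups do not overlap for any gene drawn, a condition of their choice, and DMSO replicates spread widely for mde6, SPCC737.04 and hri1.

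Genes of the mating pathway rose, among them its transcription factor and kinases of its cascade. The gene lists of this report were chosen with earlier results of these data known. Their shares beside those of all probe sets are descriptions and were not tested. Of 22 probe sets on a list of sexual differentiation genes, 12 rose, 54.5% against 9.89% of all probe sets. None was called as lower by limma, 2 were lower at an unadjusted p under 0.05, and the methods' test called 2 higher. The median change of the list was 0.71, against 0.10 over all probe sets, and it was 0.56 after quantile normalization, when 10 rose and 1 fell. The number that rose ran from 8 (without DMSO replicate 2, and without LatA replicate 2) to 12 as single arrays were left out.

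The gene ste11, for the regulator that starts sexual differentiation, stood at 1.88, 1.61 and 1.39 with LatA and at −0.54, −1.15 and −0.32 with DMSO. No array of either group came near the other, and ste11 rose by 2.30 ± 0.22, or 4.93 fold (adjusted p = 0.00198). The cascade below the pheromone receptor comprises the G protein subunit Gpa1p, the adaptor Ste4p and the kinases Byr2p, Byr1p and Spk1p. The α subunit gene gpa1 had levels of 1.29, 1.2 and 1.24 with LatA and −0.02, −0.12 and 0.11 with DMSO. Replicates of both groups lay close together, and gpa1 rose by 1.25 ± 0.10 (adjusted p = 0.00126). For byr1, the MAP kinase kinase, levels were 1.13, 1.12 and 1.17 with LatA and −0.12, −0.41 and −0.38 with DMSO. Its rise of 1.44 ± 0.11 (adjusted p = 0.00126) was, with that of gpa1, among the calls that the methods' test also made.

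The MAP kinase gene spk1 stood at 1.47, 1.05 and 1.21 with LatA and at −0.58, −0.63 and 0.03 with DMSO. The groups stayed apart although DMSO replicate 3 was high, and spk1 rose by 1.63 ± 0.20 (adjusted p = 0.00351). The adaptor gene ste4 rose by 1.56 ± 0.14 (adjusted p = 0.0014). For byr2, the kinase between Ste4p and Byr1p, the change was 0.50 ± 0.16 and was not called (adjusted p = 0.0626). The MADS-box transcription factor gene map1 rose by 1.41 ± 0.16 and the meiotic RNA-binding protein gene mei2 by 0.80 ± 0.17. The call of mei2 was lost without DMSO replicate 2 or without LatA replicate 2.

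These cells are of the M mating type, and the M-type genes did not all change alike. The silent-cassette gene mat3-Mc, for the M-type transcription factor, stood at 0.56, 0.59 and 0.50 with LatA and at −0.95, −0.95 and −0.65 with DMSO. Its groups were tight and apart, with a rise of 1.40 ± 0.12 (adjusted p = 0.00126), and RNA from its near-identical copy at the mat1 locus cannot be told apart from its own. The gene for the P-factor receptor, mam2, rose by 1.12 ± 0.23, that for the agglutinin mam3 by 0.86 ± 0.12, and that for the M-factor exporter mam1 by 0.63 ± 0.14. Of the 3 genes for the M-factor precursor, mfm2 rose by 1.17 ± 0.26, while the probe sets of mfm1 changed by −0.30 and −0.15 and those of mfm3 by 0.42 and 0.38, none of them called. The call of mam1 was lost after median centring, after quantile normalization and without any of 4 arrays (DMSO replicate 2 and the 3 LatA replicates), that of mam2 without DMSO replicate 2 or LatA replicate 2, and that of mfm2 without LatA replicate 3. The P-type genes map2 (P-factor precursor) and map3 (M-factor receptor) changed by −0.38 ± 0.12 and 0.14 ± 0.10 and were not called. The mating formin gene fus1 rose by 0.84 ± 0.24 and lost its call after quantile normalization and without DMSO replicate 2, LatA replicate 2 or LatA replicate 3.

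**Figure D3:**
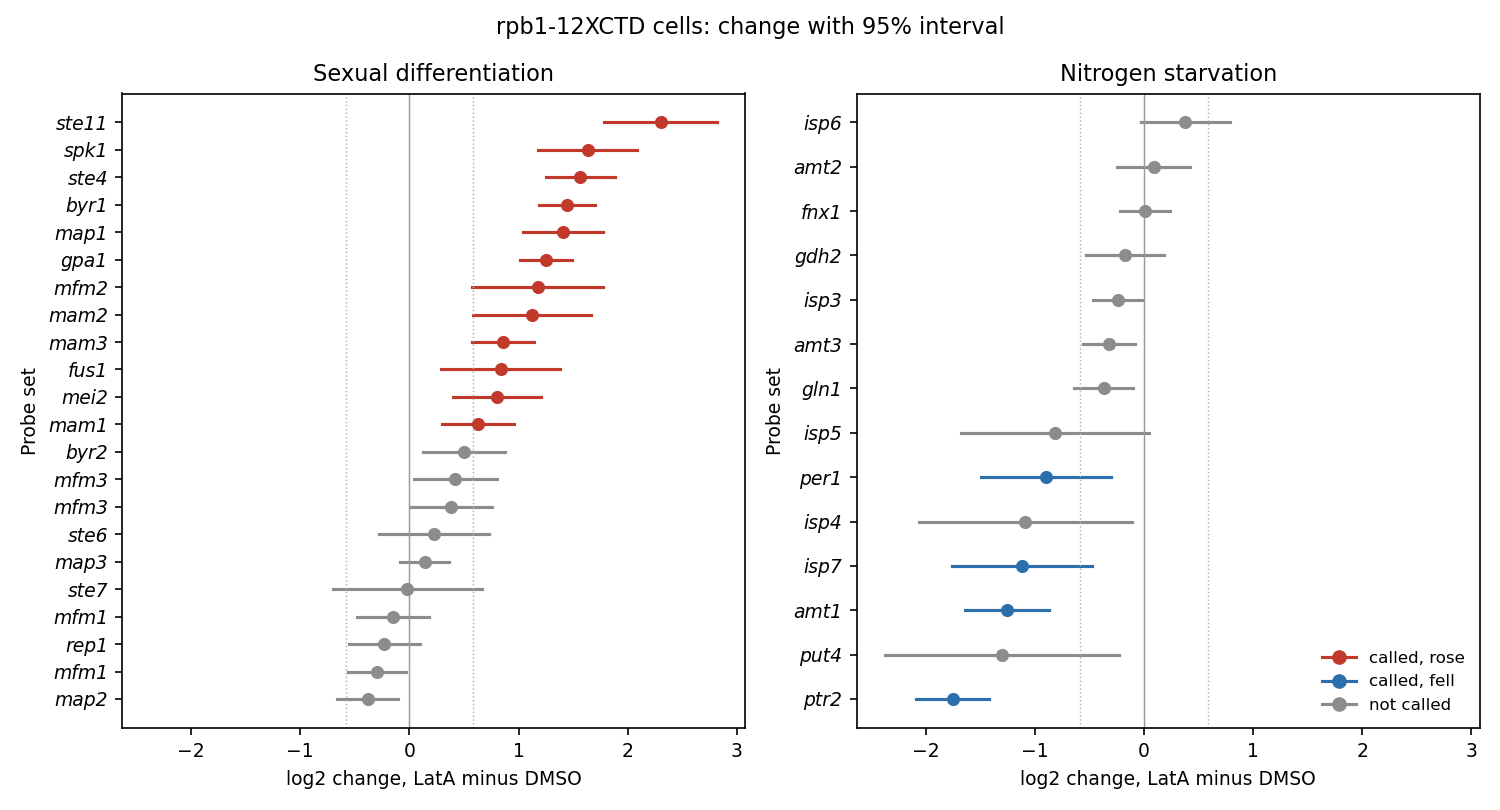
Log2 change in LatA minus DMSO (horizontal axis) with its 95% interval from limma for each probe set of the sexual differentiation list (left) and of the nitrogen starvation list (right), in rpb1-12XCTD cells, coloured by call, with dotted lines at 1.5 fold. On the left 12 of 22 rose, led by ste11 at 2.30, and on the right 4 of 14 fell, led by ptr2 at −1.75.

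A list of other genes induced by nitrogen starvation held no called rise, unlike the list of mating genes. It does not include ste11, whose program also follows the loss of nitrogen. Of the 14 probe sets on the list, 4 fell (ptr2, amt1, isp7 and per1), 28.6% against 2.22% of all probe sets, and the median change was −0.59. None rose by limma or at an unadjusted p under 0.05, and 9 were lower at that p. The share of all probe sets lower at that p was not counted. The methods' test called 0 in either direction. The number that fell was 2 without DMSO replicate 3, LatA replicate 1, LatA replicate 2 or LatA replicate 3, and 7 without DMSO replicate 2. The peptide transporter gene ptr2 stood at −1.42, −1.34 and −1.01 with LatA and at 0.33, 0.48 and 0.67 with DMSO. It was low on every LatA array and fell by 1.75 on the log2 scale (SE 0.14, adjusted p = 0.00126). The ammonium transporter gene amt1 had levels of −0.24, −0.36 and −0.54 with LatA and 1.18, 0.57 and 0.87 with DMSO, which did not overlap. Its change was −1.25 ± 0.17 (adjusted p = 0.00498). The starvation-induced genes isp4 (−1.09 ± 0.42), isp5 (−0.81 ± 0.37) and put4 (−1.30 ± 0.46), which encode transporters, were not called, and their DMSO arrays disagreed. For put4 the levels were 0.42, −0.25 and −0.21 with LatA and 2.22, 0.17 and 1.47 with DMSO. The DMSO array of replicate 2 lay among the LatA arrays.

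Transporters of the plasma membrane made up 7 of the 20 largest falls of named genes, a grouping made after the values were seen. Their share among all probe sets was not counted, so whether 7 exceeds it was not tested. The membrane transporter gene SPCPB1C11.03 had the largest fall, with levels of −0.77, −0.43 and −0.67 with LatA and 1.76, 1.40 and 1.70 with DMSO. Its groups were separated by more than their own width, and it fell by 2.24 on the log2 scale (SE 0.14, adjusted p = 0.00102). The amino acid transporter gene aat1 stood at −0.61, −1.52 and −1.65 with LatA and at 0.24, 0.86 and 1.00 with DMSO. LatA replicate 1 lay between the other LatA arrays and the DMSO arrays, and the change of aat1 was −1.96 ± 0.30 (adjusted p = 0.00669). The remaining 4 were SPBC887.17 (a predicted uracil permease, −1.82 ± 0.36), SPAC1039.01 (amino acid permease family, −1.43 ± 0.18), vht1 (biotin transporter, −1.29 ± 0.11) and amt1, with ptr2 above. The call of SPBC887.17 was lost without DMSO replicate 2. Another selection made after the values were seen took 11 probe sets whose annotation names an amino acid permease, a peptide transporter or an ammonium transporter. It includes ptr2 and, by its definition, also amt1 and SPAC1039.01, all already counted above, so its share is no separate result. The gene aat1 is outside it, as the lowest change of the selection was −1.75. Of the 11, 5 fell (45.5%, against 2.22% of all probe sets) and 1 rose (9.09%, against 9.89%), with a median change of −0.36. The riser was SPCPB1C11.02, a predicted amino acid permease, with levels of 0.67, 0.97 and 0.81 with LatA and −0.13, −1.73 and −0.34 with DMSO. All LatA arrays lay above all DMSO arrays, and the rise of 1.55 ± 0.37 was lost without LatA replicate 2 or LatA replicate 3.

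Other large falls came from genes with diverse products. The gene wwm3, a member of the CESR-Up list, went against that list's name with levels of −0.86, −0.93 and −0.43 with LatA and 1.64, 0.45 and 1.58 with DMSO. Its groups did not overlap, and the change was −1.96 ± 0.31. The meiotic gene mug150 fell by 1.87 on the log2 scale (SE 0.18), the phosphoserine phosphatase gene ser2 by 1.27 (SE 0.15) and the alcohol dehydrogenase gene adh4 by 1.24 (SE 0.19). The helicase gene tlh2, which lies near a chromosome end and has near-identical copies, was lower on both of its probe sets, by −1.47 ± 0.16 and −0.75 ± 0.14, and the copies cannot be told apart. The call of the second was lost without LatA replicate 2. Of the 20 largest falls among all called probe sets, 3 have no single gene name.

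Of 136 CESR-Up genes, 63 rose (46.3%, against 9.89% of all probe sets) and 2 fell (1.47%, against 2.22%), with a median change of 0.53 and quartiles at 0.15 and 1.05. Without LatA replicate 2 the risers numbered 40, and after quantile normalization 51. Over all probe sets the risers numbered 234 and 284 in those settings, against 482 as deposited. The CESR-Up fallers numbered 5 without DMSO replicate 1 and 4 without DMSO replicate 2. The fallers were wwm3 and srk1 (−0.75 ± 0.15), the kinase activated by Sty1p. Of 104 CESR-Down genes, which most stresses repress, 8 fell (7.69%, against 2.22% of all probe sets) and 3 rose (2.88%, against 9.89%), with a median change of −0.20. The fallers numbered 18 without DMSO replicate 1, 3 without LatA replicate 2, 4 without LatA replicate 3 or DMSO replicate 3, and 20 after quantile normalization. Over all probe sets the fallers numbered 204, 50, 68, 69 and 256 in those settings, in that order, against 108 as deposited. The 3 CESR-Down risers were mfm2, mei2 and nrd1, of which 1 was left without DMSO replicate 2 or LatA replicate 2. Of the 561 genes annotated to the cellular response to stress, 138 rose (24.6%, against 9.89% of all probe sets) and 11 fell (1.96%, against 2.22%). The split was 111 rose and 20 fell after median centring and 99 rose and 26 fell after quantile normalization, and the risers numbered 73 without LatA replicate 2. The fallers of that list numbered 17 without DMSO replicate 2 and 7 without DMSO replicate 3. The members of these 3 lists were read from the study's supplementary material, which took the CESR genes from earlier work and the stress genes from Gene Ontology annotation.

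Among 21 probe sets for heat shock proteins and chaperones, 7 rose (33.3%, against 9.89% of all probe sets). All 21 changes were positive, with a median of 0.34, against 0.10 over all probe sets. The share of all probe sets with a positive change was not counted. After quantile normalization 4 of the 21 rose, with a median of 0.21. None was lower by limma or at an unadjusted p under 0.05, and the methods' test called 0 in either direction. The disaggregase gene hsp104 stood at 0.07, 0.54 and 0.64 with LatA and at −1.09, −1.47 and −0.35 with DMSO. Both groups spread widely without touching, and hsp104 rose by 1.39 ± 0.28 (adjusted p = 0.0139). Its mitochondrial relative hsp78 rose by 1.37 ± 0.21, the Hsp70 gene ssa1 by 1.36 ± 0.36 and the DnaJ-type co-chaperone gene psi1 by 1.00 ± 0.18. The call of ssa1 was lost after quantile normalization, and 4 members were left as risers without LatA replicate 2 or LatA replicate 3. The Hsp90 gene hsp90 (0.25 ± 0.10) and the heat shock factor gene hsf1 (0.20 ± 0.09) were not called.

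Of the signalling genes upstream, atf1 changed by 0.34 ± 0.15 and was not called (adjusted p = 0.135). In the MAP kinase list of 16 probe sets, 2 rose (12.5%, near the 9.89% of all probe sets). The genes ptc1 and pyp1, for phosphatases that turn the Sty1p pathway down, rose by 0.95 ± 0.14 and 0.65 ± 0.13, and limma called srk1 alone as lower. The call of pyp1 was lost after median centring, after quantile normalization and without LatA replicate 2 or LatA replicate 3. Of 20 antioxidant genes 2 rose, a share of 10% that is near the 9.89% of all probe sets, gst3 (glutathione S-transferase) by 1.31 ± 0.18 and sod2 (manganese superoxide dismutase) by 0.75 ± 0.19, a call lost without DMSO replicate 2, LatA replicate 2 or LatA replicate 3.

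Autophagy genes have products that carry cell contents to the vacuole for breakdown. Of 25 probe sets 13 rose, 52% against 9.89% of all probe sets, with a median change of 0.60, and 12 were not called. None was lower by limma or at an unadjusted p under 0.05, and the methods' test called 0 in either direction. By limma the risers numbered 6 after quantile normalization, when the list's median was 0.45, and 8 after median centring. They numbered 6 without LatA replicate 2 and 8 without DMSO replicate 2. The gene atg13, for a subunit of the kinase complex that starts autophagy, stood at 0.18, 0.39 and 0.22 with LatA and at −0.47, −0.75 and −0.55 with DMSO. Its groups were clear of each other, and it rose by 0.85 ± 0.12 (adjusted p = 0.00522). Other members of that complex, atg17 (0.85 ± 0.12), atg101 (0.74 ± 0.14) and the kinase gene atg1 (0.62 ± 0.13), also rose, as did atg8 (0.67 ± 0.15), whose product marks the autophagosome membrane. The largest rises of the list were those of atg43 (1.15 ± 0.22), atg2402 (1.12 ± 0.22) and atg22 (0.99 ± 0.17). The calls of atg1 and atg8 were lost after both rescalings and without DMSO replicate 2, LatA replicate 2 or LatA replicate 3, that of atg2402 without DMSO replicate 2 or LatA replicate 2, and that of atg101 after quantile normalization and without LatA replicate 2. The conjugation genes atg5 (−0.03 ± 0.10) and atg12 (−0.15 ± 0.14) were not called.

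Metabolic lists held fewer calls. Of 16 genes for hexose transport and gluconeogenesis 4 rose (25%, against 9.89% of all probe sets), led by the gluconeogenic enzyme gene fbp1 at 1.18 ± 0.18, and 1 was left after median centring, after quantile normalization and without LatA replicate 2 or LatA replicate 3, and 2 without DMSO replicate 2. The trehalase gene ntp1 rose by 1.05 ± 0.19. In the tricarboxylic acid cycle 3 of 11 genes rose (27.3%, against 9.89% of all probe sets), mdh1, idh1 and idh2, by 0.59 to 0.61. These 3 calls were lost after both rescalings and without DMSO replicate 2, LatA replicate 2 or LatA replicate 3. In the iron list 2 of 12 rose (16.7%, against 9.89% of all probe sets). These were sib1 and sib2, for the synthesis of the siderophore ferrichrome, with rises of 1.06 ± 0.15 and 1.04 ± 0.23. The call of sib2 was lost without LatA replicate 2. On the phosphate list 2 of 7 rose (28.6%, against 9.89% of all probe sets) and 2 fell (28.6%, against 2.22%). The risers were gde1 (1.40 ± 0.21) and csk1 (0.69 ± 0.15). The call of csk1 was lost after quantile normalization and without DMSO replicate 1, LatA replicate 1 or LatA replicate 2. The acid phosphatase gene pho4 and the phosphate transporter gene pho841 changed by −0.75 ± 0.12 and −0.90 ± 0.18. The gene ura4, the marker that tags the rpb1 allele in every array, stood at 0.48, −0.20 and −0.21 with LatA and at −0.78, −1.43 and −1.08 with DMSO. It rose by 1.12 ± 0.23 (adjusted p = 0.0144), a call lost after quantile normalization and without DMSO replicate 2.

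The actin gene itself was not called, while some genes of filament turnover rose. The actin gene act1 stood at 0.04, 0.05 and 0.07 with LatA and at −0.05, −0.17 and −0.02 with DMSO. The LatA arrays were all slightly higher, the change was 0.13 ± 0.09 (95% interval −0.08 to 0.35), and it was not called (adjusted p = 0.34). Of 18 genes for actin monomers and filaments 4 rose, abp1, cap1, aip1 and the mating formin gene fus1 described above. This is 22.2% against 9.89% of all probe sets, with a median change of 0.34 against 0.10. The risers numbered 2 with limma's trend and robust options and 3 after quantile normalization. They numbered 3 without DMSO replicate 2, LatA replicate 2 or LatA replicate 3, and 6 without DMSO replicate 3. None was lower by limma or at an unadjusted p under 0.05, at which 14 were higher. The share of all probe sets higher at that p was not counted. After quantile normalization the list's median was 0.23, against −0.02 over all probe sets. The methods' test called 0 in either direction. The gene aip1, whose product helps cofilin to take filaments apart, had levels of 0.79, 0.91 and 0.93 with LatA and 0.01, −0.01 and 0.33 with DMSO. Its groups did not overlap, and it rose by 0.76 ± 0.12 (adjusted p = 0.00716). The gene cap1, for a protein that binds actin monomers, rose by 0.81 ± 0.12 and abp1, for an actin-binding protein of the endocytic patch, by 0.94 ± 0.13. The profilin gene cdc3 (0.14 ± 0.10) and the cofilin gene adf1 (0.06 ± 0.10) were not called.

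The subunits of the Arp2/3 complex, which nucleates branched filaments at patches, and their partners had small, mostly positive changes. Of 19 probe sets 18 had a positive change, and the median was 0.32. It was 0.21 after quantile normalization. Over all probe sets the median as deposited was 0.10, with quartiles of −0.10 and 0.34. The share of all probe sets with a positive change was not counted. The genes shd1 (0.66 ± 0.11) and yap18 (0.71 ± 0.12) rose, a share of 10.5% against 9.89% of all probe sets. Both calls were lost after quantile normalization, and that of shd1 also after median centring and without DMSO replicate 2. Among 19 contractile ring genes 2 rose, also 10.5% and near the share of all probe sets, and these were the myosin II heavy chain genes myp2 and myo2. The levels of myp2 were 0.86, 0.49 and 0.43 with LatA and −0.30, −1.05 and −0.22 with DMSO, apart on every array, with a rise of 1.12 ± 0.23 (adjusted p = 0.0146). The rise of myo2 was 0.81 ± 0.13 (adjusted p = 0.0069). The ring genes mid1 (0.03 ± 0.10), cdc15 (0.05 ± 0.16) and cdc12 (0.25 ± 0.10) were not called. In the septation initiation network, the kinase cascade that starts septum formation, only cdc16 rose among 15 genes (0.71 ± 0.11). That share of 6.67% is near the 9.89% of all probe sets. The call of cdc16 was lost after quantile normalization, and without DMSO replicate 3 the risers numbered 4. The cdc16 product takes part in turning that cascade off. Of all 333 cytokinesis and cytoskeleton genes listed by the study, 30 rose (9.01%, against 9.89% of all probe sets) and 8 fell (2.40%, against 2.22%), shares near those of all probe sets, with a median change of 0.20. After quantile normalization 15 rose and 14 fell, with a median of 0.08. Those counts were 47 and 1 without DMSO replicate 3, 15 and 1 without LatA replicate 2, 22 and 1 without LatA replicate 3, and 25 and 13 without LatA replicate 1.

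Of 20 genes for wall building and cell integrity 4 rose (20%, against 9.89% of all probe sets), and 2 rose after median centring or quantile normalization. Among the 4 was mkh1, for a kinase of the cell integrity MAP kinase pathway, which stood at 0.42, 0.52 and 0.50 with LatA and at −0.64, −0.72 and −0.37 with DMSO. It rose by 1.06 ± 0.12 (adjusted p = 0.00295). The β-glucanase gene exg3 rose by 0.75 ± 0.17 and the protein kinase C gene pck1 by 0.67 ± 0.11. The call of exg3 was lost without DMSO replicate 2, LatA replicate 2 or LatA replicate 3, when 2 members of the list were left as risers, and that of pck1 after both rescalings. The glucanase gene exg1 stood at 0.15, −0.86 and −0.37 with LatA and at 1.10, 0.37 and 0.85 with DMSO, a change of −1.14 ± 0.27 that was lost without DMSO replicate 3, LatA replicate 2 or LatA replicate 3.

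Some genes of cell separation and of the G1/S transition fell. Of 15 genes for septins and separation, whose products include the enzymes that split daughter cells, 3 fell (20%, against 2.22% of all probe sets), among them adg1 and agn1, and mbx1 rose. The gene adg1 stood at 0.00, −1.51 and −0.98 with LatA and at 0.45, 0.13 and 0.56 with DMSO. LatA replicate 1 was near the DMSO arrays, and the change was −1.21 ± 0.34 (adjusted p = 0.039). The separation genes eng1 (−0.81 ± 0.31), adg2 (−0.80 ± 0.26) and adg3 (−0.64 ± 0.23) were not called. Without LatA replicate 1 the fallers of the list numbered 6, without DMSO replicate 1 or DMSO replicate 2 they numbered 1, and without LatA replicate 2, LatA replicate 3 or DMSO replicate 3 none was left. The call of mbx1 (0.89 ± 0.21) was lost without DMSO replicate 2, LatA replicate 1 or LatA replicate 2.

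Of 22 genes for G1/S transcription and the licensing of replication 5 fell (cdt2, cdt1, mik1, cdc18 and rep2), 22.7% against 2.22% of all probe sets, and res2 rose, with a median change of −0.17. The gene cdt2, for the substrate adaptor of the ubiquitin ligase that clears Cdt1p in S phase, stood at −0.17, −0.88 and −0.62 with LatA and at 1.08, 0.17 and 0.78 with DMSO. It changed by −1.24 ± 0.26 (adjusted p = 0.0153). For cdt1, the licensing factor, the levels were 0.25, −0.83 and −0.56 with LatA and 1.03, 0.25 and 1.15 with DMSO. LatA replicate 1 met DMSO replicate 2 there, and the change of cdt1 was −1.19 ± 0.32 (adjusted p = 0.0343). The change of cdc22, for ribonucleotide reductase, was −0.87 ± 0.30 and was not called. The transcription factor gene res2 rose by 1.07 ± 0.18. The fallers of this list numbered 1 without DMSO replicate 3 or LatA replicate 2, 2 without LatA replicate 3, and 7 without LatA replicate 1.

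The histone regulator gene ams2, for a GATA-type factor that activates histone genes in S phase, had levels of −0.33, −0.84 and −1.30 with LatA and 0.66, 0.51 and 0.62 with DMSO. Its groups were apart, with a change of −1.42 ± 0.22 (adjusted p = 0.00692). On the list of 14 histone probe sets that includes it 2 fell (14.3%, against 2.22% of all probe sets), and the other call was 1 of the 2 probe sets of hhf1 (−0.70 ± 0.20), for histone H4, and its second probe set changed by −0.49 ± 0.17. For hhf1 LatA replicates 2 and 3 were low at −0.74 and −0.84 and LatA replicate 1 stood at −0.09. Histone genes of 1 kind are near-identical, so their probe sets may share RNA. The fallers on the list numbered 4 without LatA replicate 1 and 1 without LatA replicate 2, LatA replicate 3, DMSO replicate 2 or DMSO replicate 3. Around mitosis, slp1, the activator of the anaphase-promoting complex, changed by −0.88 ± 0.21, and dma1, a spindle checkpoint ubiquitin ligase, rose by 0.77 ± 0.16. Both calls were lost without LatA replicate 2 or LatA replicate 3, and that of slp1 also without DMSO replicate 3.

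Few genes of the growth machinery were called. Of 126 cytosolic ribosomal protein probe sets limma called 0, the methods' test 0, and 1 passed an unadjusted p of 0.05, with a median change of 0.04 as deposited and −0.06 after median centring or quantile normalization. The 52 for mitochondrial ribosomal proteins also gave 0 calls with both tests (6 at the unadjusted p), the 39 for the respiratory chain and ATP synthase 0 (8 at the unadjusted p), the 24 for translation factors 0 (1 at the unadjusted p) and the 8 for the CCT chaperonin, which folds actin and tubulin, 0 (0 at the unadjusted p). Of 85 ribosome biogenesis factors 3 fell (dbp3, rrp17 and rrp8, by 0.61 to 0.71 on the log2 scale), 3.53% against 2.22% of all probe sets, with a median change of −0.14. After median centring 7 fell, and after quantile normalization 7 fell. The fallers numbered 11 without DMSO replicate 1, 1 without LatA replicate 1, and 0 without any 1 of the other 4 arrays. Proteasome subunits, 32 probe sets, all had a positive change with a median of 0.31, against 0.10 over all probe sets. Their median was 0.20 after quantile normalization. The share of all probe sets with a positive change was not counted. Of the 32, 1 rose by call, rpn1302 (3.1%, against 9.89% of all probe sets). That call was lost after both rescalings and without DMSO replicate 2 or LatA replicate 2. The transcripts of rpb1 (0.18 ± 0.14), lsk1 (−0.15 ± 0.10), lsc1 (−0.22 ± 0.12), lsg1 (−0.03 ± 0.21) and the phosphatase gene clp1 (−0.02 ± 0.10) were not called.

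Read by array, the lists show which replicates carry each change. The median of the CESR-Up genes was 0.06, 0.30 and 0.33 on the LatA arrays and −0.24, −0.57 and −0.21 on the DMSO arrays, so LatA replicate 1 stood lowest of the LatA arrays and DMSO replicate 2 lowest of all. The median of the ribosome biogenesis genes was 0.02, −0.04 and −0.07 with LatA and −0.27, 0.36 and 0.23 with DMSO, and the LatA arrays lay within the range of the DMSO arrays. For sexual differentiation the medians were 0.18, 0.34 and 0.18 with LatA and −0.08, −0.35 and −0.09 with DMSO, and those groups stayed apart. LatA replicate 1 had the highest ste11, spk1, rec10 and mei2 levels of the 3 LatA arrays and the lowest zym1, hsp104 and SPAC4H3.08 levels. What set the replicates apart was not tested.

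**Figure D4:**
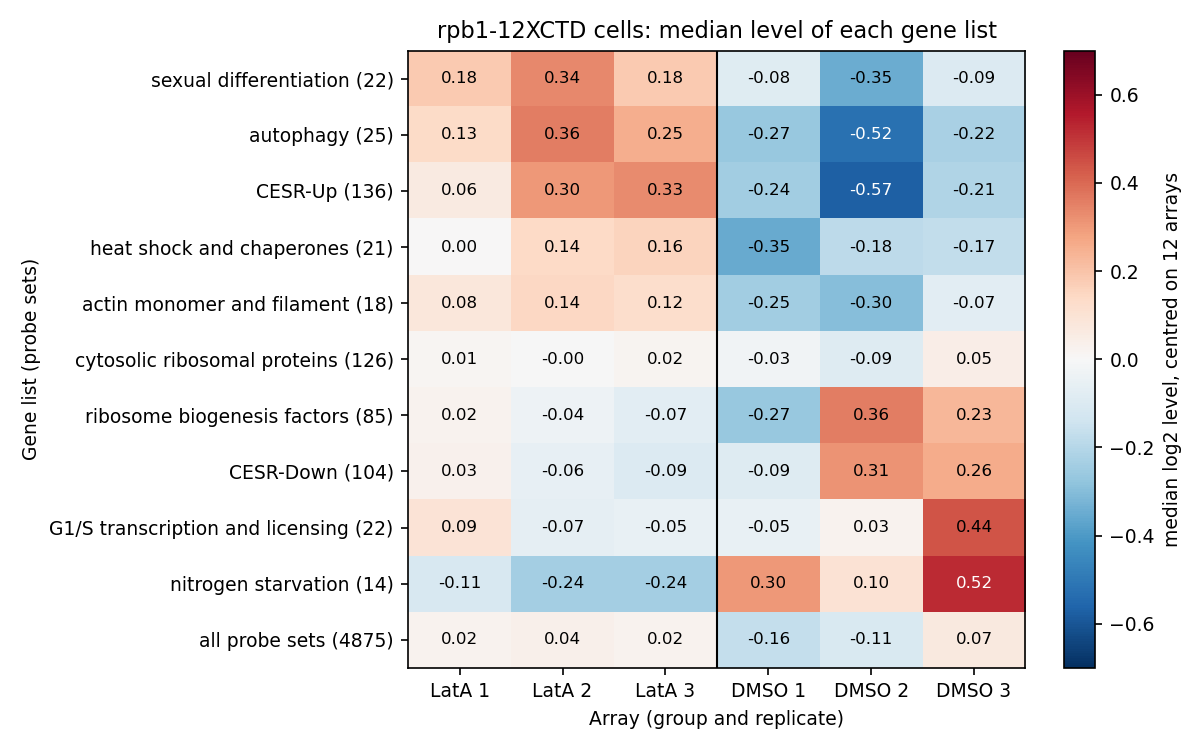
Median log2 level (colour and printed value, centred on 12 arrays) of each gene list, with its number of probe sets in brackets, on the 3 LatA arrays (left) and the 3 DMSO arrays (right) of rpb1-12XCTD cells. The sexual differentiation, autophagy, CESR-Up, heat shock and actin rows are above 0 on every LatA array and below 0 on every DMSO array. The row of all probe sets is also above 0 on every LatA array, and below 0 on DMSO replicates 1 and 2. The ribosome biogenesis row differs more among the DMSO arrays (−0.27 to 0.36) than between the groups.

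In 5 places 3 or more protein-coding genes in a row, by their order in RefSeq, were all called. With 12.1% of all probe sets called, such runs can also arise by position alone, and their expected number was not computed. In 2 of these the genes rose together, mug8 with SPAC32A11.02c and phx1, and swc3 with SPAC4H3.03c and SPAC4H3.04c. The other 3 held calls in both directions. In a run of 4 genes, fbp1 (1.18), wwm2 (1.15) and the trehalase gene ntp1 rose, and wwm3 (−1.96), which lies between fbp1 and wwm2, fell. The predicted permease gene SPCPB1C11.02 (1.55) rose between amt1 (−1.25) and SPCPB1C11.03 (−2.24), and ser2 (−1.27) fell between SPBC3H7.08c (1.5) and pof9 (1.24). These runs were looked for after the values were seen, and whether transcripts of neighbours overlap on these probe sets was not tested.

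The LatA response of rpb1-12XS2ACTD cells uses none of these 6 arrays, so the comparison of strains rests on separate cultures, although all 12 arrays were normalized together. Of the 482 risers 476 had a positive change there, and of the 108 fallers 107 had a negative one, while 77.1% of all probe sets had the same sign in both strains. Across all probe sets Pearson's r of the changes was 0.83 and Spearman's rho 0.82, as a description over genes, which are not independent replicates. The median change of the risers was 0.79 in rpb1-12XCTD and 0.61 in rpb1-12XS2ACTD, and that of the fallers −0.82 in rpb1-12XCTD and −0.71 in rpb1-12XS2ACTD. The calls were made on the rpb1-12XCTD values, which favours larger changes there.

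A test of the difference itself, in a limma fit of the 12 arrays, called 1 probe set (0.0205%), the thiamine-repressed gene nmt1. Its change was 0.50 ± 0.12 in rpb1-12XCTD, which was not called, and 4.01 in rpb1-12XS2ACTD. No mating, stress or actin gene passed that test. For spk1 the changes were 1.63 in rpb1-12XCTD and 0.41 in rpb1-12XS2ACTD, a difference (rpb1-12XS2ACTD minus rpb1-12XCTD) of −1.22 with a 95% interval of −1.80 to −0.64 and an adjusted p of 0.193. For byr1 they were 1.44 in rpb1-12XCTD and 0.73 in rpb1-12XS2ACTD (difference −0.71, 95% interval −1.01 to −0.41, adjusted p = 0.193), and for ste11 2.30 in rpb1-12XCTD and 1.40 in rpb1-12XS2ACTD (difference −0.90, 95% interval −1.53 to −0.27, adjusted p = 0.381). The peptide transporter gene ptr2 changed by −1.75 in rpb1-12XCTD and −0.87 in rpb1-12XS2ACTD (difference 0.88, 95% interval 0.51 to 1.26, adjusted p = 0.193). For aip1 the changes were 0.76 in rpb1-12XCTD and 0.47 in rpb1-12XS2ACTD (difference −0.30, 95% interval −0.82 to 0.23, adjusted p = 0.63). The single intervals for spk1, byr1, ste11 and ptr2 leave out 0, and none of these genes passed the adjustment over all probe sets. Without DMSO replicate 3 of rpb1-12XCTD the difference was called for 52 probe sets.

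**Figure D5:**
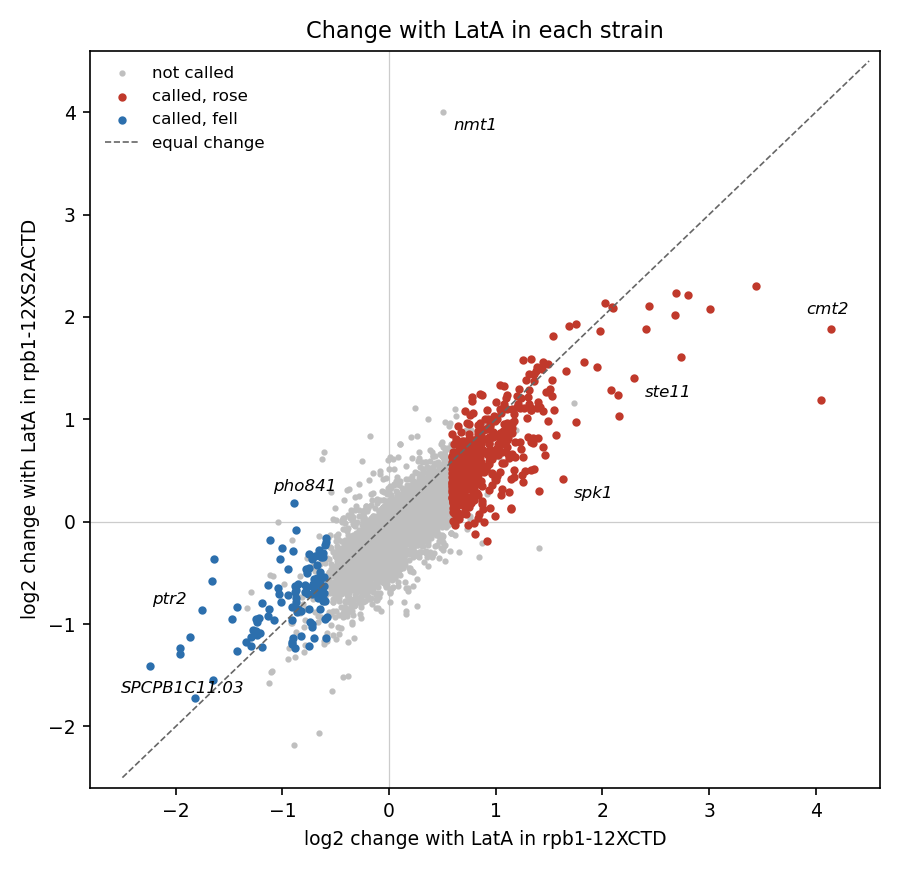
Log2 change with LatA of every probe set in rpb1-12XCTD (horizontal axis) and in rpb1-12XS2ACTD (vertical axis), coloured by its call in rpb1-12XCTD, with the dashed line marking equal change. Most called genes lie on the same side of 0 in both strains, ste11, spk1 and cmt2 lie below the line, and nmt1 stands alone at 0.50 in rpb1-12XCTD and 4.01 in rpb1-12XS2ACTD.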

How the data were processed

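RNA of 12 cultures was hybridized to Affymetrix Yeast Genome 2.0 arrays, and the authors normalized them by RMA in Genespring. The deposited values are log2 intensities centred to a median of 0 per probe set, by a step the sources used here do not describe. No step was added before the test. Probe sets were named through the study's supplement (2584) or the array annotation (1337), and 954 have no single name. Limma 3.58.1 (R 4.3.3) was fitted to the 6 rpb1-12XCTD arrays, and to 4 group means on 12 arrays for the difference between strains. Calls need an adjusted p under 0.05 and a 1.5 fold change. On simulated data with 4875 genes, 86.6%, 98.5% and 100% of changes of 0.8, 1.2 and 2 log2 units were recovered, with 2 false calls. The simulated noise was independent between genes and had no array offsets such as those seen here. These values therefore check the code and do not measure how reliable the calls on the real arrays are. Genes named are the 20 largest rises and falls whose groups did not overlap, up to 4 called members of each of 46 lists (up to 2 where none was called), 11 genes of interest and the genes called between strains. Other list members are named to account for a list, and were chosen after their values were seen. The receptor gene mam2, set down as P-type in the lists, is described as M-type by its role. The members and lists were chosen with earlier results of these data known. Alternatives were another scaling, array weights, all 12 arrays, the methods' gene-specific test, unadjusted p, the replicate block, limma's trend and robust options, calls without the fold threshold, leaving out each array in turn and leaving out probe sets shared by several genes. Precision rests on 3 arrays per group. No filter on signal was run, because the centred values hold no level.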

Additional observations from a re-analysis of the deposited data

Results flagged for a closer look

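The change of nmt1 with LatA differed between the strains by 3.50 log2 units (rpb1-12XS2ACTD minus rpb1-12XCTD, 95% interval 2.77 to 4.24, adjusted p = 0.00221 by limma). In rpb1-12XCTD its levels were 0.08, −0.09 and −0.27 with LatA and −0.69, −0.63 and −0.47 with DMSO, which did not overlap. The cause was not tested.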

How the results depend on the processing

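As deposited, 590 probe sets were called (482 rose, 108 fell). The methods' test called 15 (9 rose, 6 fell), and dropping the fold threshold gave 1060 (841 rose, 219 fell). Median centring gave 177 falls, and quantile normalization gave 284 rises and 256 falls. Called under all 3 scalings, an alternative chosen after seeing the data, were 382 in all with 276 rises. With single arrays left out the calls ran from 284 to 713, the rises from 234 to 644 and the falls from 50 to 204, the lowest values without LatA replicate 2. The difference between strains, 1 call, gave 19 after quantile normalization, 0 with limma's trend and robust options, 134 at an unadjusted p (chosen after seeing the data) and 1 to 52 with arrays left out. The replicate number as a block gave 658 calls (517 rose, 141 fell), with all 590 kept. Deviations of same-numbered LatA and DMSO arrays showed little correlation (r = −0.04, 0.02 and −0.18). That does not settle whether the arrays were paired, and nothing says what the replicate number marks. Of the 116 called probe sets that the rule names, 67 kept their call whichever array was left out, 13 lost it after median centring and 20 after quantile normalization, and none was called in the opposite direction. Centred values show no signal over background, so low expression cannot be judged. The causes of these shifts were not tested.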
